A study of Homo sapiens with 6 samples.

Results

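Cholesterol is built in animal cells from acetyl-CoA, first through the mevalonate pathway to isoprenoid units and squalene, and then through ring closure of squalene and a series of trimming steps to the finished sterol. The 8 genes described here were chosen by name from this pathway, out of 20163 protein coding genes of the GENCODE annotation on GRCh37, and FDFT1 and POR were loci that the study displayed. In the order of their steps, HMGCS1 makes HMG-CoA, IDI1 isomerises isopentenyl diphosphate, FDPS makes farnesyl diphosphate, and FDFT1 joins pairs of it to squalene. SQLE then makes the epoxide of squalene, LSS closes it to lanosterol, and DHCR7 carries out a reduction at the end of the pathway. POR, cytochrome P450 oxidoreductase, is an electron donor that serves SQLE and the P450 enzyme CYP51A1 as well as P450 enzymes outside the pathway. Most of these genes are known targets of SREBP transcription factors, which act when sterols are scarce and often together with NF-Y and Sp1 at promoters.

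To examine the occupancy of MMP-2 at these genes, native ChIP-Seq (nChIP-Seq) peak lists from U2OS, a human osteosarcoma cell line, were read within 1 kb of every annotated transcription start site (TSS) of each gene. MMP-2 is a metalloprotease that also cuts the N-terminal tail of histone H3 in the nucleus. The 6 samples fell into 4 groups, all of cells kept for 2 days past confluence. The 3 HA replicates came from U2OS cells that stably carry a transgene for the MMP-2 pro-enzyme, HA-tagged at its C-terminal end (ProMMP2-3xHA), and express it without induction, and this line was set beside 1 HA sample of untagged wild type (WT) cells and 1 H3K4me3 library of each line, H3K4me3 being a mark of active promoters. No separate list of the untagged HA sample was analysed here. The chromatin was cut with micrococcal nuclease and not crosslinked, so the intervals were made of nucleosome fragments. The tagged protein was expressed in addition to the cells' own MMP-2, and the HA antibody is directed at the tag. Each library came from a whole culture, so more occupied cells and more protein per cell cannot be told apart.

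The lists gave intervals and, for the HA replicates, the fold enrichment of each summit over its local background, but no read counts. The 3 HA lists held between 6401 and 9193 peaks, of which between 4559 and 6541 lay within 1 kb of a protein coding TSS. A median of 51, 43 and 40 fragments was recovered at the summits of replicates 1, 2 and 3. As a check of the labelled cells, H3K4me3 in both lines was present at RUNX2, COL1A1 and VIM, and absent from COL1A2, ALPL and SPP1, the remaining bone and mesenchymal genes of the list. Of the genes of other cell types, CDH1, PTPRC, CD3E and ALB had no H3K4me3 in either line, whereas EPCAM and KRT18 had it in both.

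Each of the 8 genes had an H3K4me3 region at a TSS in both lines, 5 of them also had a merged HA peak, and 2 of them had an HA peak in each replicate. The promoters are shown first, because genes with and without HA peaks shared the same short motifs. Each stretch below is 120 bases of GRCh37 that lies in the 250 bases upstream of the canonical TSS, outside every annotated UTR, and is written 5′ to 3′ on the strand of the gene. Capitals mark CCAAT, the letters bound by NF-Y, and GGGCGG, the GC box bound by Sp1, with ATTGG and CCGCCC as the same motifs on the opposite strand. The stretches are chr5:43313615-43313734 on the minus strand for HMGCS1, chr10:1095060-1095179 on the minus strand for IDI1, chr1:155278419-155278538 on the plus strand for FDPS, chr21:47648739-47648858 on the minus strand for LSS, chr11:71159482-71159601 on the minus strand for DHCR7 and chr7:75544285-75544404 on the plus strand for POR. HMGCS1, FDPS and POR had merged HA peaks, LSS had a peak in 1 replicate, and IDI1 and DHCR7 had none.
HMGCS1: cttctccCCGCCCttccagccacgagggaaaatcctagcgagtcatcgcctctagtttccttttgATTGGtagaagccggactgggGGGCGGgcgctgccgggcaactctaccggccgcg
IDI1: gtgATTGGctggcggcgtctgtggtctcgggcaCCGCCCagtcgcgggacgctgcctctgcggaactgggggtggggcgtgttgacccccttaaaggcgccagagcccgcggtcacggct
FDPS: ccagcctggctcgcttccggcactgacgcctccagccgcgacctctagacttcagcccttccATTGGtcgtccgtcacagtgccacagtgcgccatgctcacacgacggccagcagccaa
LSS: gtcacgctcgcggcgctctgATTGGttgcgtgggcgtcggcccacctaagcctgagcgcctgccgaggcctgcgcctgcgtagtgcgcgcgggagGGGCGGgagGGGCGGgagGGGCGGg
DHCR7: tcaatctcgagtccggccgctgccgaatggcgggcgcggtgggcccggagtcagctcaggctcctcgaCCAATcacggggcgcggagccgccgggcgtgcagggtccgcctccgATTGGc
POR: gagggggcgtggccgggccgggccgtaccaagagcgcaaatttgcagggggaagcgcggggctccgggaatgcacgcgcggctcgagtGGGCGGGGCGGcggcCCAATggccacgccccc

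In the window from 250 bases before to 50 bases after the canonical TSS, with both strands searched, CCAAT was found in 8 of 8 members compared to 36.0% of 19862 protein coding promoters. The GC box was found in 8 of 8 members compared to 61.5% of all promoters. TCACNCCAC, letters of a sterol regulatory element, were found in 0 of 8 members and 1.22% of promoters, and other spellings of this element were not searched. The number of CCAAT motifs ranged from 1 at POR and LSS to 4 at FDFT1, and the number of GC boxes from 1 at FDPS and IDI1 to 7 at LSS. A match describes letters only. IDI1 and DHCR7, which lacked HA peaks, each had 2 CCAAT motifs, the same number as HMGCS1 and SQLE, which had merged HA peaks. In POR the GC boxes overlapped by 1 base, at −100 to −95 and −95 to −90 bases from the TSS, and the CCAAT lay just downstream of them at −85 to −81. The GC content of the window ranged from 61% at FDPS to 75.7% at SQLE, against a median of 63.7% over all promoters, with a 5th to 95th percentile of 39.7% to 79.3%. The HA summits of the members lay outside the searched window, as the plot of motif positions displays, so the search says nothing about motifs at the summits.

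**Figure D1:**
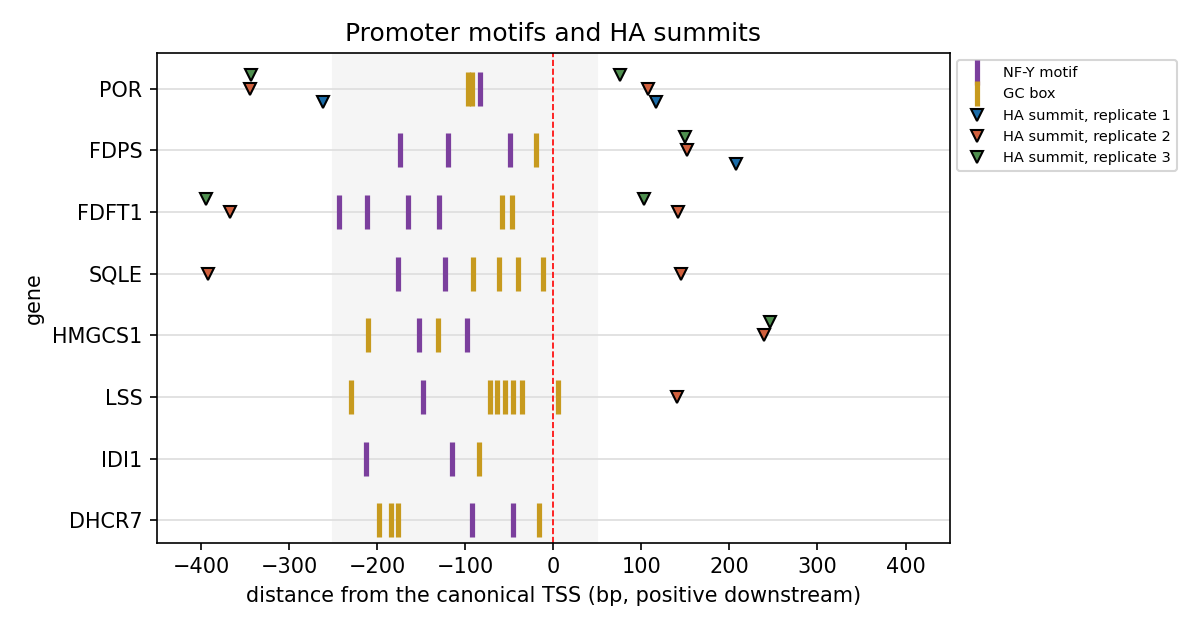
Positions of the CCAAT (NF-Y) and GGGCGG (GC box) motifs and of HA summits, in bp from the canonical TSS (x axis, positive downstream), for the 8 genes (rows). The shaded band is the searched window and triangles are summits by replicate; the summits lie outside this window, and IDI1 and DHCR7 have motifs but no summit.

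To determine which members were occupied by ProMMP2-3xHA, the merged list of the HA replicates was read first. FDFT1, POR, HMGCS1, SQLE and FDPS had a merged HA peak, that is 5 of 8 members, compared to 32.4% of all 20163 genes and to 50.6% of the 12737 genes with H3K4me3 in both lines. The H3K4me3 regions of the members in the ProMMP2-3xHA cells were between 1157 and 3614 bp wide, and among the 8007 genes in this range of widths 60.4% had a merged HA peak. The count of members was therefore near the share of genes with H3K4me3 regions of similar width. LSS, IDI1 and DHCR7 had no merged peak.

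The replicate lists differed in the members that they held. Peaks were present at 2 of 8 members in replicate 1 (23.9% of all genes). Replicate 2 held 6 of 8 members, against 32.3% of genes, and replicate 3 held 4 of 8, against 32.8%. POR and FDPS were the 2 of 8 members with a peak in every replicate, compared to 19.2% of all genes and 30.1% of genes with H3K4me3 in both lines. Among genes with H3K4me3 regions in the members' range of widths, this share was 36.9%. FDFT1 and HMGCS1 had peaks in replicates 2 and 3, and SQLE and LSS in replicate 2. IDI1 and DHCR7 were the 2 of 8 members with no HA peak in any list. This state was shared by 36.8% of genes with H3K4me3 in both lines and by 26.4% of those in the members' range of widths. The lists hold peaks only, so a missing peak sets no upper limit on occupancy. The lowest fold enrichment of any promoter peak was 2.43, 2.31 and 2.20 in replicates 1, 2 and 3.

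**Figure D2:**
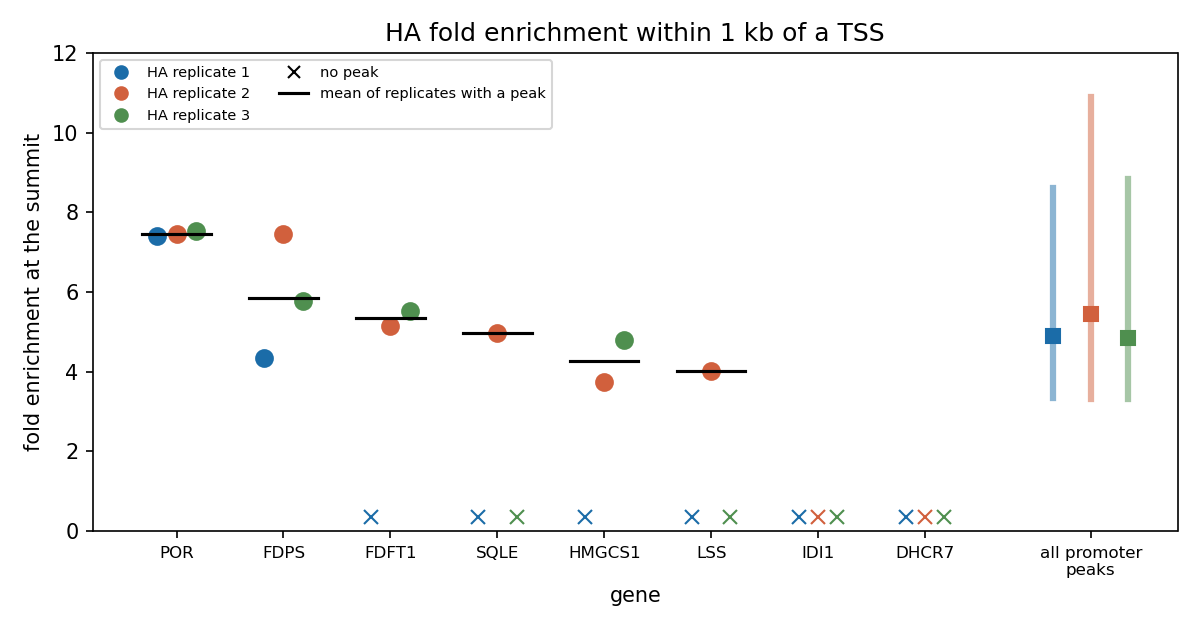
Fold enrichment of the highest HA summit over its local background (y axis, ratio) within 1 kb of a TSS of each gene (x axis), with 1 point per replicate, crosses for replicates with no peak and bars for the mean of the replicates with a peak. At the right, squares are the median and lines the 5th to 95th percentile of all promoter peaks of each replicate; the POR points lie between 7.40 and 7.53, and those of FDPS spread from 4.35 to 7.46.

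POR displayed the highest mean HA enrichment of the members. It lies on chromosome 7 (75528518 to 75616173, plus strand, ENSG00000127948.17), has 28 annotated transcripts with 23 distinct TSSs, and was read relative to the canonical TSS at 75544473. The fold enrichment of its highest summit in the 3 replicates was 7.40, 7.47 and 7.53, which averaged 7.47 ± 0.0621 (SD, n = 3). These summits rested on 93, 83 and 89 fragments, with 95% exact Poisson intervals of 75.1 to 114, 66.1 to 103 and 71.5 to 110. The intervals overlapped and cover counting error only. The 3 fold enrichments differed by less than this counting error, so their small SD was not taken as a trait of POR. Among promoter peaks of the same replicate, the percentiles of the POR summits were 89.5, 79.2 and 89.8. On the log2 scale the fold enrichment was 0.60, 0.46 and 0.64 above the median promoter peak of the same replicate, a mean of 0.56 ± 0.0957 (SD, n = 3) and higher in 3 of 3 replicates, for which an exact two-sided sign permutation test gave p = 0.25 and an adjusted p of 0.5 over POR and FDPS. A p below 0.25 is out of reach with 3 replicates. Only members with a peak in every replicate were tested, while the median also covers promoter peaks called in fewer replicates. This choice tilts the comparison towards higher values, so no conclusion is drawn from it.

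The merged POR peak covered 677 bp from −448 to 228 bp around the TSS, with negative positions upstream (chr7:75544025-75544701). In each replicate it held a pair of summits. The downstream summit lay in intron 1 of the canonical transcript, 117, 107 and 76 bp from the TSS. The upstream summit lay at −262, −344 and −343 bp with fold enrichments of 4.73, 4.97 and 3.40. The downstream summit was higher in 3 of 3 replicates, by 1.76 ± 0.394 times (SD, n = 3). The summits were 379, 451 and 419 bp apart (416 ± 36.1, SD, n = 3). The microRNA gene MIR4651 starts 42 bp downstream of this TSS on the same strand, so the downstream summit could not be assigned to POR alone. The upstream summit lies outside annotated UTRs. The 101 bases around its position in replicate 2 (chr7:75544079-75544179, GRCh37, plus strand) have a GC content of 70.3%, and the summit of replicate 1 lies outside them:
POR upstream summit: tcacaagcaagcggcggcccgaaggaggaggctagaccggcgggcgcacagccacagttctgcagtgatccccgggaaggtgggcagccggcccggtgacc

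By the 3 HA fold enrichments and both H3K4me3 widths, all on a log2 scale, the genes with the values most like POR were SPTAN1, PIK3C2A and ALDH6A1, at Euclidean distances of 0.14, 0.16 and 0.18, out of 3831 genes with all 5 values. SPTAN1 had fold enrichments of 7.69, 7.77 and 7.01. None of these is a pathway gene of the lists used here.

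FDPS, on chromosome 1 (155278539 to 155290457, plus strand, ENSG00000160752.15), had the widest interval of the members in the merged list and in replicate 2, whereas in replicates 1 and 3 its 305 and 421 bp peaks were narrower than those of POR at 515 and 673 bp. Its highest summit had a fold enrichment of 4.35, 7.46 and 5.78 (mean 5.86 ± 1.55, SD, n = 3, in the order of replicates 1, 2 and 3), at 208, 152 and 150 bp downstream of the TSS at 155278657. The FDPS value of replicate 2 lay within the range of POR, and those of replicates 1 and 3 lay below it. Relative to the median promoter peak the log2 difference was −0.17, 0.45 and 0.26, a mean of 0.18 ± 0.317 (SD, n = 3) and higher in 2 of 3 replicates (exact two-sided sign permutation test, p = 0.5, adjusted p = 0.5). The limit stated for the comparison of POR applies to FDPS as well.

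The merged FDPS peak reached from 18 to 1078 bp downstream of the TSS (chr1:155278675-155279735) and thus covered 1061 bp, or 8.90% of the gene. The covered share was 1.43% for FDFT1, 1.18% for HMGCS1, 0.967% for SQLE and 0.772% for POR. FDPS is also short, at 11919 bp, and of the members IDI1 at 9968 bp is the only shorter gene and had no HA peak. In replicate 2 a single 1193 bp FDPS peak held summits at 152, 698 and 956 bp, with fold enrichments of 7.46, 3.93 and 5.56. Replicate 3 had separate peaks with summits at 150 and 911 bp, the latter with a fold enrichment of 3.56, and replicate 1 had the first site only. The far site rested on 44 fragments in replicate 2 and 29 in replicate 3, where its −log10 q of 1.34 was close to the threshold of the authors. No upstream summit was present at FDPS.

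HMGCS1, on chromosome 5 (43287572 to 43313614, minus strand, ENSG00000112972.15), displayed a single downstream site. Its fold enrichment was 3.75 in replicate 2 and 4.81 in replicate 3, averaging 4.28 ± 0.748 (SD, n = 2), on 29 and 38 fragments. The summits lay 239 and 246 bp downstream of the canonical TSS, in intron 1. The merged peak of 308 bp (chr5:43313191-43313498) was the narrowest of the members.

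LSS, on chromosome 21 (47608055 to 47648738, minus strand, ENSG00000160285.15), had an HA peak in replicate 2 alone. It covered 411 bp (chr21:47648211-47648621), with a fold enrichment of 4.01 on 31 fragments and its summit 141 bp downstream of the TSS, and no merged peak was present. The antisense lncRNA MCM3AP-AS1 starts at −422 bp from the LSS start.

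FDFT1, on chromosome 8 (11653082 to 11696904, plus strand, ENSG00000079459.14), was the member with the higher summit upstream. The upstream summit had a fold enrichment of 5.15 in replicate 2 and 5.53 in replicate 3 (5.34 ± 0.273, SD, n = 2), at −367 and −394 bp from the canonical TSS at 11660250. The downstream summit, in the coding part of exon 1, had 4.69 and 4.30 at 142 and 103 bp. The ratio of downstream to upstream was thus 0.912 and 0.777, below 1 in both replicates, whereas it was above 1 in the 3 replicates of POR. The fragments at the upstream and downstream summits numbered 34 and 40 in replicate 2 and 37 and 33 in replicate 3, so the higher fold upstream went with a lower expected background, 4.34 and 4.23 against 6.31 and 5.38 fragments. An antisense lncRNA, ENSG00000255046, has 2 annotated starts, the nearer at −173 bp from the canonical TSS, and the upstream summits lay 138 and 165 bp downstream of the farther one on the strand of the lncRNA. FDFT1 has 19 distinct TSSs, and measured from the nearest of them the upstream summits lay on average 121.5 bp downstream of a TSS. The merged peak covered 625 bp, from −486 to 138 bp.

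SQLE, on chromosome 8 (126010739 to 126034525, plus strand, ENSG00000104549.12), had a merged peak of 686 bp but a replicate peak in replicate 2 alone. That peak of 848 bp held summits at −392 and 145 bp from the TSS at 126010747, with fold enrichments of 4.44 and 4.97 and a ratio of 1.12. The divergent lncRNA SQLE-DT starts at −307 bp, and the upstream summit lay 85 bp downstream of that start.

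In replicate 2, which alone held peaks at 6 of the members, the order of the fold enrichments was POR at 7.47, FDPS at 7.46, FDFT1 at 5.15, SQLE at 4.97, LSS at 4.01 and HMGCS1 at 3.75. In replicate 3 the order was POR, FDPS, FDFT1 and HMGCS1. Between neighbours in the order of the means, the ranges of POR and FDPS overlapped, as did those of FDPS and FDFT1, and the single LSS value lay within the range of HMGCS1. The single SQLE value lay between the ranges of FDFT1 and HMGCS1, with no replicate error of its own.

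To compare the pairs of summits with other genes, summits within 500 bp of the canonical TSS were sorted by side. For replicates 1, 2 and 3, summits on both sides were found at 1 of 2, 3 of 6 and 2 of 4 members, compared to 17.6%, 29.0% and 25.1% of all genes with a summit there. The remaining members had downstream summits only, as did 49.5%, 44.4% and 49.6% of genes. No member had an upstream summit only, compared to 32.9%, 26.6% and 25.3% of genes. With at most 6 members these shares rest on few genes, and POR, FDFT1 and SQLE account for all of the pairs. The median distance between upstream and downstream summits over all genes was 384, 426 and 413 bp. The POR gaps of 379, 451 and 419 bp were close to these medians, while the FDFT1 gaps of 509 and 497 bp and the SQLE gap of 537 bp were wider. The 25th to 75th percentile over all genes ran from 361 to 503 bp in replicate 2 and from 347 to 522 bp in replicate 3. The FDFT1 gap of 497 bp in replicate 3 lay inside this range, and the gaps of 509 and 537 bp in replicate 2 lay above it. No HA peak of any list lay inside a member gene farther than 1 kb from a TSS. In the merged list alone, 6.29% of the 6534 genes with a TSS peak held a further peak. Only 5 members belong to this set, so the absence of such peaks there says little.

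**Figure D3:**
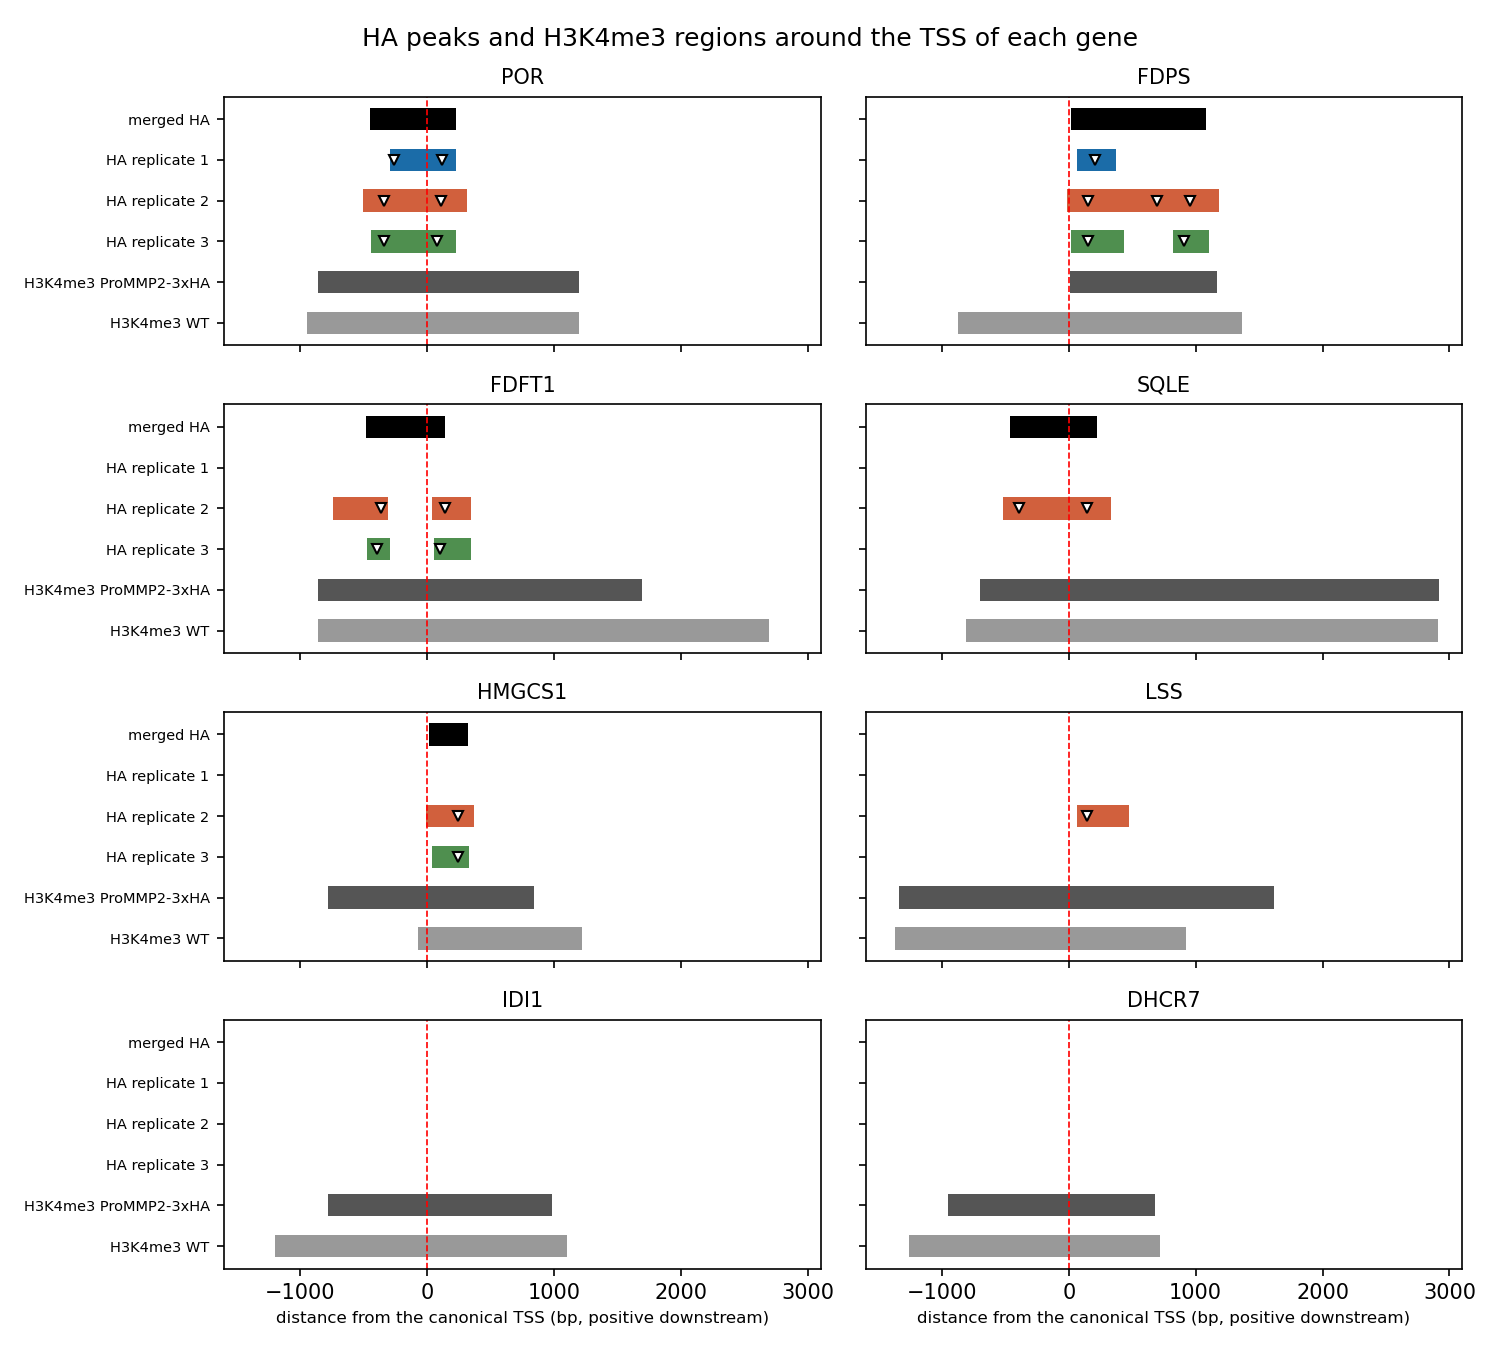
Extent of HA peaks and H3K4me3 regions (bars, 1 row per list) around the canonical TSS (dashed line) of each gene, in bp with positive values downstream; triangles are HA summits. The HA intervals lie inside or at the edge of the H3K4me3 regions, FDPS extends 1078 bp downstream in the merged list, and a second DHCR7 region near a far upstream TSS lies outside the range drawn.

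H3K4me3 was then examined at the same TSSs, with 1 library per line and hence no replicate check. In the ProMMP2-3xHA cells 8 of 8 members had a region, compared to 63.6% of all genes, and in the WT cells 8 of 8, compared to 67.2%. IDI1, with regions of 1768 and 2300 bp in the ProMMP2-3xHA and WT cells, and DHCR7, with 1634 and 1978 bp, were therefore marked promoters that lacked HA peaks. WDR37 starts at −419 bp from the IDI1 start on the opposite strand, and the lncRNA ENSG00000254682 starts at −169 bp from the DHCR7 start on the opposite strand. IDI1 lies on chromosome 10 (1085092 to 1095059, minus strand, ENSG00000067064.13) and DHCR7 on chromosome 11 (71139239 to 71163914, minus strand, ENSG00000172893.18). DHCR7 had a further region of 676 bp in the ProMMP2-3xHA cells and 1208 bp in the WT cells near an upstream TSS that faces NADSYN1.

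The widest H3K4me3 regions were those of SQLE, at 3614 bp in the ProMMP2-3xHA and 3715 bp in the WT cells, at percentiles of 96.7 and 94.1 among all marked genes. FDFT1 followed in the WT cells with 3558 bp, compared to 2560 bp in the ProMMP2-3xHA cells. SQLE nonetheless had a replicate HA peak in replicate 2 alone. FDPS, with a peak in each replicate, in turn had the narrowest region of the ProMMP2-3xHA cells at 1157 bp, a percentile of 34.3, and 2238 bp in the WT cells. POR had 2057 and 2149 bp. The median over members was 1912.5 bp in the ProMMP2-3xHA and 2267 bp in the WT cells, compared to 1445 and 1839 bp over all marked genes. Over all marked genes, regions were wider where a merged HA peak was present. The medians with and without it were 1699.5 and 1175 bp in the ProMMP2-3xHA cells, and 2124 and 1556 bp in the WT cells. SQLE and FDPS are thus single genes that differ from this general pattern.

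Between the lines, the region was wider in the WT library at 6 of 8 members, compared to 93.0% of the 12737 genes. HMGCS1 and LSS went the other way, with 1629 against 1285 bp and 2951 against 2296 bp. The HMGCS1 region extended from −784 to 844 bp in the ProMMP2-3xHA cells and from −69 to 1215 bp in the WT cells, so it was shifted downstream in the WT library. At FDPS the region began at 12 bp from the TSS in the ProMMP2-3xHA cells and at −874 bp in the WT cells, and it was 1.93 times wider in the latter. The median ratio of WT to ProMMP2-3xHA width was 1.13 over members and 1.28 over all genes. Depth and line cannot be told apart with 1 library each, so these ratios describe the libraries.

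**Figure D4:**
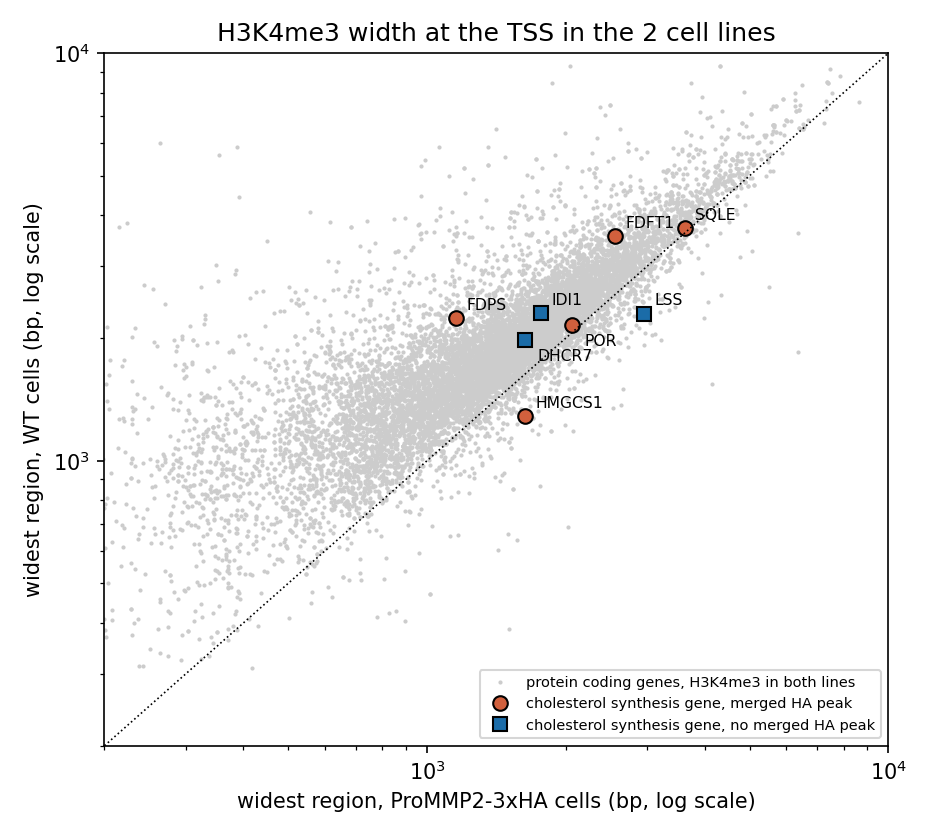
Width in bp of the widest H3K4me3 region at a TSS in the ProMMP2-3xHA cells (x axis, log scale) and in the WT cells (y axis, log scale), with 1 grey point per protein coding gene marked in both lines and the 8 members named; the dotted line is equal width and some genes lie outside the range drawn. HMGCS1 and LSS lie below the line, and FDPS lies farthest above it of the members at 1.93 times.

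Of the 26 other genes of the pathway, its regulators and related electron donors, 15 had a merged HA peak (57.7%). This share was 32.4% over all genes and 50.6% over genes with H3K4me3 in both lines. A peak in every replicate was present at 4 of the 26, against 19.2% and 30.1% of these sets. No HA peak in any list was found at 10 of the 26, against 36.8% of genes with H3K4me3 in both lines. Of the 26, 24 had H3K4me3 in both lines. TM7SF2, a sterol reductase, had neither mark. Of the 15 other enzymes, 9 had a merged peak. CYP51A1, the P450 demethylase that receives electrons from POR, had fold enrichments of 6.62, 8.97 and 6.78 (7.46 ± 1.31, SD, n = 3), a mean next to that of POR. GGPS1, which draws farnesyl diphosphate from FDPS into geranylgeranyl diphosphate, had 4.60, 6.80 and 6.63 (6.01 ± 1.23, SD, n = 3).

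NSDHL, HSD17B7, EBP and SC5D, which act between lanosterol and cholesterol, had H3K4me3 in both lines and no HA peak in any list. The same was true of MBTPS2, a protease that releases SREBP, and of the electron carriers CYB5A and CYB5R3. Other sterol enzymes, CYP51A1, LBR and MSMO1, had merged HA peaks. The HSD17B7 region was narrow, at 310 bp in the ProMMP2-3xHA and 776 bp in the WT cells. Among the 9 regulators and uptake genes, 6 had a merged peak. SREBF1, which encodes an SREBP, had 4.76, 5.39 and 5.98 (5.38 ± 0.609, SD, n = 3) and was the only one of these with a peak in every replicate. Members and other pathway genes together thus had merged peaks at 20 of 34 genes (58.8%). This compares to 32.4% of all genes and 50.6% of genes with H3K4me3 in both lines. The 60.4% of genes in the members' range of widths is a share of another kind of set. Some of the 34 genes lay outside that range or lacked H3K4me3.

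**Figure D5:**
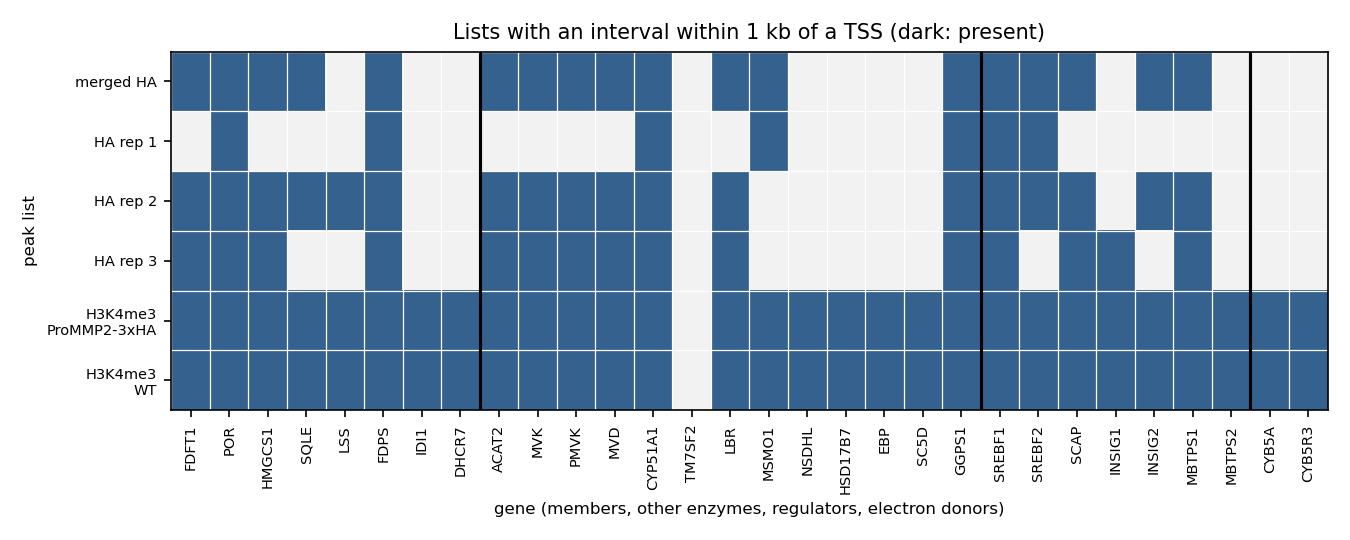
Presence (dark) or absence (light) of an interval within 1 kb of a TSS, by peak list (rows) and gene (columns); vertical lines part the 8 members, other enzymes, regulators and electron donors, for the genes reported by name. Of the genes drawn, H3K4me3 is absent from TM7SF2 alone, and of the HA lists replicate 1 holds the fewest genes.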

How the data were processed

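nChIP-Seq peak lists were used from 5 of the 6 samples, plus 1 merged HA list. Per the submitters' processing notes and the study's methods, the authors trimmed reads with Trim Galore 0.6.0, aligned them to hg19 (GRCh37) with Bowtie2 2.3.5.1, removed duplicates with Picard and called peaks with MACS2 3.0.0a6. The 3 HA experiments were independent biological replicates, called separately against a control immunoprecipitation. The deposited replicate lists give each peak's score, the fold enrichment as a ratio, and −log10 p-values and q-values, and their largest q-value was 0.05. The authors called the merged HA list on pooled replicates, and the deposited merged and H3K4me3 lists give intervals only, in which nearby calls are joined and widths grow.

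Intervals within 1 kb of any GENCODE 44 TSS (lifted to GRCh37) were counted with Python 3.11.15, pandas 2.3.3, numpy 2.4.6 and scipy 1.17.1. Lines with 1 interval counted as 1 peak. The search gave the same genes as bedtools 2.31.1 and was tested on simulated data. The files give no counts. Fragments at summits were recovered as whole numbers (tolerance 0.003) from fold enrichment and p-value. Of 600 sampled summits per replicate, 94.3%, 99.3% and 98.8% were resolved, with HA to control depth ratios of 3.57, 2.81 and 3.00. Intervals cover counting error only, and no depth could be recovered for H3K4me3. All members were named. Other pathway genes were named by presence, with values for those with a merged peak and a peak in every replicate, and the remaining values with a merged peak stand in the closing section. Some pathway genes enter the counts but are not reported here by name. Neighbours within 1 kb of a member's TSS and the 3 genes most like POR were named as well. PECAM1, a further marker, had no entry under that symbol in the annotation used. Members and lists were chosen with earlier results of these data known, so no test was run over them. Alternatives were TSS definitions, windows, stricter q-values, region choices and left-out replicates.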

Additional observations from a re-analysis of the deposited data

How the results depend on the processing

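The merged HA count of 5 members fell to 3 when the TSS was the start of the gene record, where FDFT1 and POR begin with longer transcripts and were lost, and to 2 (POR and FDPS) when merged peaks had to overlap a peak of every replicate. The latter setting took the other pathway genes from 15 to 4. The count of members with a peak in every replicate, 2, became 1 (FDPS) with the gene record TSS and ranged from 2 to 4 when 1 replicate was left out, and it was 4 without replicate 1, which added FDFT1 and HMGCS1. The H3K4me3 counts were 8 in both lines under each alternative except the gene record TSS, which gave 6 in both. The FDFT1 summit position changed from −380.5 bp to 121.5 bp when measured from the nearest TSS of any transcript. In bp, the same setting took HMGCS1 from 242.5 to 54.5, FDPS from 170 to 51 and POR from 100 to 73. SQLE went from 145 to 106 and LSS from 141 to 129. Of 82 alternatives of single values, 73 stayed within the replicate spread or at the same value, 8 moved and 1 changed sign. Many of the 73 could not have moved. A mean without 1 replicate always stays within the SD, and a single H3K4me3 region has the same width under each region choice. The tally is therefore no measure of stability. A move was a value beyond the replicate spread or, for SQLE, LSS and DHCR7, any change where no spread existed. No paired analysis was possible because the groups share only replicate number 1 and no test was made between groups. The HMGCS1 and LSS summits rested on 29 to 38 fragments. Both lacked a peak in replicate 1, whose median of 51 fragments per summit was the highest of the 3. That median covers called summits only and does not measure depth, and replicate 1 held the fewest peaks, 6401 against 9193 and 8933. The part of depth in missing peaks was not tested.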

Other observations

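Several further pathway genes had a merged HA peak without a peak in each replicate. ACAT2, which condenses acetyl-CoA, had fold enrichments of 7.33 and 5.69 in replicates 2 and 3. The kinases and decarboxylase of the mevalonate steps had peaks in the same replicates, with 4.17 and 5.26 at MVK, 5.71 and 6.92 at PMVK, and 5.71 and 5.39 at MVD. LBR, a lamin B receptor that is also a sterol reductase, had 6.13 and 4.84. MSMO1, a sterol oxidase, had a peak in replicate 1 alone, with 4.28.

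Among the regulators, SCAP, the escort protein of SREBP, had 4.47 and 6.64 in replicates 2 and 3, and MBTPS1, a protease that cleaves SREBP, had 2.57 and 3.17, the lowest of the pathway values. SREBF2, which encodes the SREBP most tied to cholesterol synthesis, had 3.27 in replicate 1 and 5.59 in replicate 2. The paralogs INSIG1 and INSIG2, which retain SREBP in the endoplasmic reticulum, had single peaks in different lists, INSIG1 in replicate 3 with 3.73 and no merged peak, and INSIG2 in replicate 2 with 4.81 and a merged peak. A value from 1 replicate has no error of its own.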
